A study of Mus musculus with 2 samples.

Results

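Leukocyte adhesion in dystrophic muscle was described through 8 genes, taken by symbol from the 24984 genes of the count tables: the endothelial selectins Selp and Sele, the immunoglobulin-family ligands Icam1, Icam2 and Vcam1, and the leukocyte receptors Selplg, Itgb2 and Itga4. All 8 were found. They were read in 2 single cell RNA-seq libraries of live mononuclear cells, sorted by exclusion of propidium iodide from the hind limbs of dystrophin-deficient mdx mice. Ctrl mice were Pax7 CreERT2/R26YFP; Yy1 +/+; mdx and dKO mice were Pax7 CreERT2/R26YFP; Yy1 f/f; mdx. Both groups therefore shared the mdx background, the tamoxifen-inducible Cre driven by Pax7, the YFP reporter and the tamoxifen itself, with muscle taken a month after it. The Cre acts in muscle stem cells (MuSCs), so the endothelial, stromal and immune cells that carry the 8 genes were not its target. Each library pooled several mice, and with 1 library per group there are no replicates and no test. Intervals given here are exact 95% intervals that cover counting error only, not the variation between mice or between cells.

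Leukocytes leave the blood in steps. Selectins on activated endothelium, mainly of venules, bind the glycosylated ligand PSGL-1 (the product of Selplg) and slow the cells to a roll, after which activated integrins on the leukocyte hold on to immunoglobulin-family ligands and the cell crosses the vessel wall. The beta 2 chain encoded by Itgb2 pairs with alpha chains to form integrins such as LFA-1 (with the product of Itgal) and Mac-1 (with that of Itgam), which bind ICAM-1 and ICAM-2, while the alpha 4 chain encoded by Itga4 pairs with the beta 1 chain as VLA-4 and binds VCAM-1. P-selectin, E-selectin, ICAM-1 and VCAM-1 are known targets of inflammatory signalling through NF-kB, ICAM-2 is constitutive on endothelium, and VCAM-1 also marks quiescent MuSCs.

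Sele and Selp are neighbours on the same strand of chromosome 1 in GRCm38 (GENCODE M21), Sele at chr1:164048234-164057677 and Selp at chr1:164115264-164150026, 57586 bases apart. Icam1 lies on chromosome 9, Icam2 on 11, Vcam1 on 3, Selplg on 5, Itgb2 on 10 and Itga4 on 2. The 250 bases before the RefSeq start (GRCm38.p6, gene strand, 5′ to 3′) are shown for the 2 selectins, which shared a cell pattern, and for Icam1, which had a wider one. Promoters of 4 of the 8 genes were at hand. Capitals mark TATAAA in Sele and the overlapping matches to the RelA and c-Rel form of the NF-kB site in Icam1.
Sele, chr1:164047984-164048233: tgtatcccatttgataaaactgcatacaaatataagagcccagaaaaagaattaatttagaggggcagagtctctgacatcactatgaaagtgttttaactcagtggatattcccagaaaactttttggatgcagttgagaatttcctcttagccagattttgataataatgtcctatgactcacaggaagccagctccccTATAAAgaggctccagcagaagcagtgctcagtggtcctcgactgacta
Selp, chr1:164115014-164115263: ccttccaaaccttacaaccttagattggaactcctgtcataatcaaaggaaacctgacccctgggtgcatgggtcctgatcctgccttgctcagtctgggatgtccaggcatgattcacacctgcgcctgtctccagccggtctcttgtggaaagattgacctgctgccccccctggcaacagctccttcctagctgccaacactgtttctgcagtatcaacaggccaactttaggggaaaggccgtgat
Icam1, chr9:21015690-21015939: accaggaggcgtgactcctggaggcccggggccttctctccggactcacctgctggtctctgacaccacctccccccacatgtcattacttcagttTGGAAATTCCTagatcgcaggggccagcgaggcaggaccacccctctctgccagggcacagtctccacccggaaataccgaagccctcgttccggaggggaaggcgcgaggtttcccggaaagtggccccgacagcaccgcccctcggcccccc

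The TATAAA of Sele lies 49 to 44 bases before its start, and 7.59% of 32851 promoter windows of the same length held this word on the gene strand. The Icam1 window held the form bound by RelA and c-Rel at 154 to 145 bases before the start, with an overlapping match on the other strand, and 6.94% of windows held it on either strand. The stricter NF-kB consensus, present in 7.25% of windows, matched none of the 4 windows. A match is a stretch of letters and not a site shown to be bound, and the GENCODE start of Icam1 lies 45 bases further downstream than the RefSeq start used for its window.

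The Ctrl library held 4010 kept cells (median 7880 UMIs) and the dKO library 3079 (median 7806), and 7 barcodes occurred in both. A UMI stands for 1 captured RNA molecule, and levels are counts per 1000000 UMIs of the cells summed (CPM). Yy1 checked the labels: in MuSC-like cells it had 369 UMIs (160 CPM) in Ctrl and 3 UMIs (4.85 CPM) in dKO. Cells were clustered without the 8 genes among the variable genes and classes were named from listed markers, hence "like". Endothelial cell (EC)-like cells numbered 463 in Ctrl (11.5% of cells) and 179 in dKO (5.81%).

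The 8 genes fell into 3 cell patterns that held in both libraries. Selp and Sele belonged almost wholly to EC-like cells, which held 95.2% of the Selp UMIs in Ctrl and 98.4% in dKO, and 91.2% of the Sele UMIs in each. Icam2 was also mainly endothelial, with 73.6% and 68.1% of its UMIs in EC-like cells. Icam1 and Vcam1 were spread over endothelium and stroma: fibro-adipogenic progenitor (FAP)-like cells, the mesenchymal cells of muscle, held 47.9% of Icam1 UMIs in Ctrl and 65.0% in dKO, and 48.8% and 62.0% of Vcam1 UMIs. The 3 receptors were genes of leukocytes. Monocyte/macrophage (MO/MP)-like cells, the most numerous leukocytes here, held 71.7% and 71.9% of Selplg, 80.8% and 83.0% of Itgb2 and 69.7% and 60.5% of Itga4 UMIs.

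**Figure D1:**
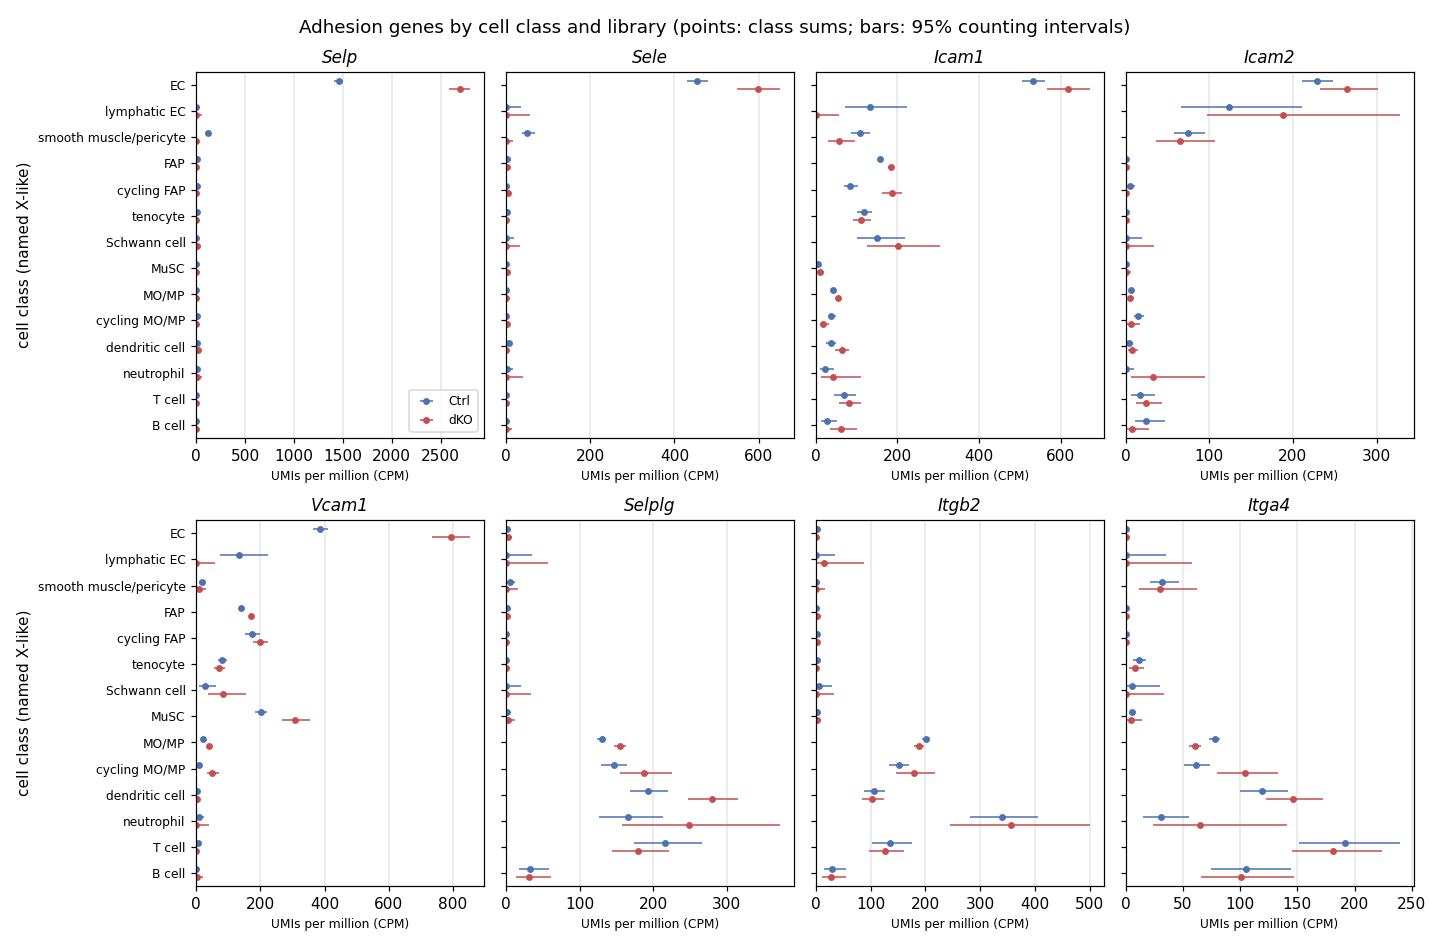
CPM (x axis, a linear scale of its own in each panel) of the 8 adhesion genes in 14 cell classes (y axis), with Ctrl in blue and dKO in red and bars for 95% counting intervals. Selp and Sele stand out in EC-like cells, Vcam1 and Icam1 also reach FAP-like cells, and Selplg, Itgb2 and Itga4 are highest in the leukocyte classes at the bottom of each panel, with a lower Itga4 level in smooth muscle/pericyte-like cells (32 CPM in Ctrl and 30.2 in dKO).

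Over all kept cells together, 5 of the 8 genes were lower in dKO by a margin beyond the counting interval and 2 were higher. Such margins were common: of 12557 genes with at least 100 UMIs, 30.2% were lower and 18.2% higher in the same sense. Selp was at 98.7 CPM in Ctrl and 78.5 in dKO (ratio 0.795, interval 0.756 to 0.837), Sele at 32.1 and 18.8 (0.585, 0.529 to 0.646) and Icam2 at 20.1 and 11.2 (0.556, 0.489 to 0.632). These 3 endothelial genes were lower in the whole library while the EC-like share of cells was also lower, and within EC-like cells none of them was. Itgb2 (0.806) and Itga4 (0.791) were lower as well. Vcam1 (1.34, 1.28 to 1.40) and Icam1 (1.19, 1.14 to 1.24) were higher, and Selplg lay near parity (1.05, 0.988 to 1.12).

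P-selectin was the most abundant of the 8 transcripts in any class. In EC-like cells Selp had 3833 UMIs in Ctrl and 2348 in dKO, which made 1457 CPM (1411 to 1504) against 2694 CPM (2586 to 2805), a ratio of 1.85 (1.76 to 1.95). Thinned to 2000 UMIs per cell, which left out 67 Ctrl and 36 dKO cells below that depth, 22.7% of Ctrl and 36.4% of dKO EC-like cells had a Selp UMI (22.7% and 32.4% unthinned). None of the 118 Ctrl and 137 dKO T cell-like cells and none of the 142 and 87 B cell-like cells did, where 3 UMIs, taken as the floor of a count of 0, would make at most 11.6 CPM and the exact interval reaches at most 14.3. Outside EC-like cells the counts sat in few cells: 93 of the 98 Selp UMIs of Ctrl smooth muscle/pericyte-like cells and all 43 of their Sele UMIs came from 1 cell each.

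Within the endothelium, Selp was a venous gene. Sub-clusters named from listed markers gave capillary-like, venous-like (led by Ackr1, Lbp and Olr1) and arterial-like cells. Venous-like cells held 3781 of the 3833 Selp UMIs in Ctrl and 2304 of the 2348 in dKO. The venous-like share of EC-like cells was 22.7% in Ctrl (18.9 to 26.8) and 28.5% in dKO (22 to 35.7), and these cells also had more UMIs per cell (median 7034 and 7431) than capillary-like cells (3969 and 2742), so the class sum depends on the mix of states. Compared inside venous-like cells, Selp was at 4897 CPM in Ctrl and 6471 in dKO, a ratio of 1.32 (1.25 to 1.39) in place of 1.85. Holding the state shares equal in both libraries gave 1.33. By cell, the median of 105 Ctrl cells was 2772 CPM with quartiles of 729 and 6700, and the median of 51 dKO cells was 5107 with quartiles of 2691 and 9058. The cells of both libraries overlapped over nearly the whole range, from cells with no Selp UMI to the highest cell at 24964 CPM in Ctrl and 27937 in dKO.

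E-selectin followed the same cells but not the same difference. Sele in EC-like cells was at 454 CPM in Ctrl (1195 UMIs) and 598 in dKO (521 UMIs), a ratio of 1.32 (1.19 to 1.46). Of these UMIs, 1182 in Ctrl and 508 in dKO were venous-like, and there the levels were 1531 and 1427 CPM, a ratio of 0.932 (0.838 to 1.04). With equal state shares it was 0.964. The class level of Sele was thus higher in dKO while its summed level in venous-like cells was not, whereas Selp was higher in both. In capillary-like cells both selectins were far lower and rested on few cells. Sele was at 7.05 CPM in Ctrl (11 UMIs in 3 of 293 cells) and 38.3 in dKO (13 UMIs in 4 of 96 cells), a ratio of 5.43 (2.24 to 13.4). Selp was at 8.34 CPM (13 UMIs in 7 cells) and 41.2 (14 UMIs in 4 cells), a ratio of 4.94 (2.16 to 11.4). Single cells held 7 of the Ctrl and 6 of the dKO Sele UMIs, and another dKO cell held 8 of the Selp UMIs. Without the highest cell of each library in each sub-cluster, Sele had 0 Ctrl and 1 dKO UMI in the larger capillary-like sub-cluster and 1 and 1 in the other, and Selp had 6 and 0 and then 0 and 5. The median venous-like cell lay the other way from the sum, at 788 CPM of Sele in Ctrl and 985 in dKO. The highest cell had 12038 and 6061.

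**Figure D2:**
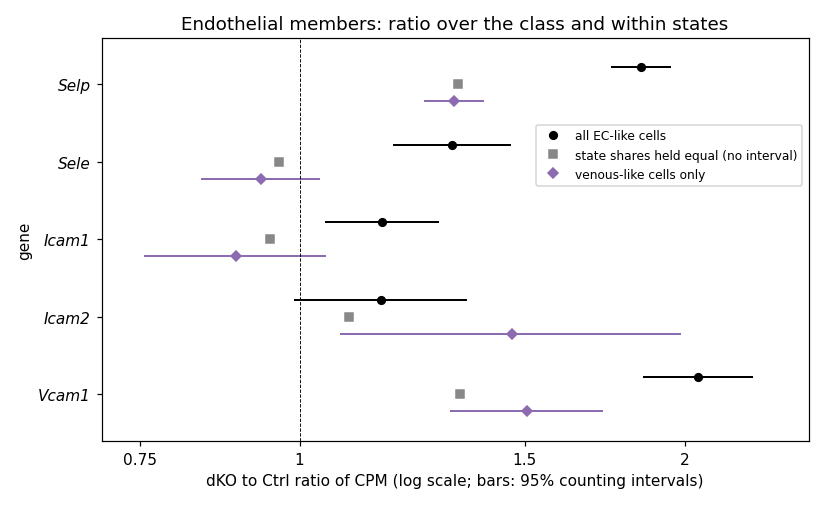
Ratio of dKO to Ctrl CPM (x axis, log scale, dashed line at 1) of 5 genes (y axis) over all EC-like cells (black), with state shares held equal (grey, no interval) and in venous-like cells alone (purple), with 95% counting intervals. The class ratio of Selp and Vcam1 shrinks toward 1 but stays above it, that of Sele and Icam1 crosses 1, and that of Icam2 in venous-like cells (1.47) is above its class ratio (1.16).

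Vcam1 showed the widest difference of the 5 endothelial genes. EC-like cells had 387 CPM in Ctrl (1018 UMIs) and 793 in dKO (691 UMIs), a ratio of 2.05 (1.86 to 2.26). At 2000 UMIs, 17.2% and 28.7% of these cells had a Vcam1 UMI. Its vessels were arteries and veins rather than capillaries: arterial-like cells were at 1564 and 1808 CPM, venous-like cells at 683 and 1028, and capillary-like cells at 14.7 and 20.6. In venous-like cells the ratio was 1.51 (1.31 to 1.72), and it was 1.52 without the highest cell of each library. In arterial-like cells it was 1.16 (1.00 to 1.34), but 204 of the 468 Ctrl UMIs there came from 1 cell, without which it was 1.59 (1.33 to 1.90). With equal state shares the EC ratio was 1.34.

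Icam1 had no common direction across vessel types. Over EC-like cells it was at 532 CPM in Ctrl and 617 in dKO (1.16, 1.05 to 1.28), but without the highest cell of each library the interval included 1 (1.09, 0.982 to 1.21). It was highest in arterial-like cells, at 1544 CPM in Ctrl against 1029 in dKO (0.667, 0.558 to 0.793), and in venous-like cells it was at 677 and 604 (0.892, 0.757 to 1.05). In capillary-like cells it was at 265 and 418 (1.57, 1.29 to 1.91). This capillary difference came from the sub-cluster led by Slc1a1, Eml1 and Akap12 (469 and 824 CPM), while the larger one led by Inka1, Mest and Thrsp had 185 and 203. With equal state shares the class ratio was 0.948. Without the 1 highest cell of each library, venous-like Icam1 was at 0.747 (0.621 to 0.895), and 53 of the 215 dKO UMIs came from that 1 cell.

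Icam2, the constitutive ligand, did not differ beyond the counting interval over the class. EC-like cells had 229 CPM in Ctrl and 265 in dKO (1.16, 0.991 to 1.35), an interval that includes 1. At 2000 UMIs, 35.4% and 40.6% of EC-like cells had an Icam2 UMI and no tenocyte-like cell did (median 9505 and 9888 UMIs). Arterial-like cells were highest (484 and 455), then capillary-like (222 and 224) and venous-like cells (144 and 211). The capillary and arterial ratios were 1.01 and 0.939 with intervals that include 1, and the venous ratio was 1.47 (1.08 to 1.98). Lymphatic EC-like cells (18 and 13 cells) had 123 and 188 CPM of Icam2 and no UMI of Selp or Sele.

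Of the 5 endothelial genes with at least 100 UMIs in EC-like cells, Selp and Vcam1 were at least 1.5-fold higher in dKO and none was lower. Over the 4706 genes tested in these cells 4.5% were higher and 7.1% lower by that margin. In venous-like cells Vcam1 alone passed it, where 5.22% of 1782 genes were higher.

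Most venous-like cells carried several of the genes at once. At full depth 94 of 105 Ctrl and 49 of 51 dKO cells had Selp, and of these 81.9% and 77.6% also had Sele. Of venous-like cells with Vcam1, 98.4% in Ctrl (62 of 63) and 100% in dKO (36 of 36) had Selp. At least 3 of the 5 genes were found in 83.8% and 88.2% of venous-like cells, and all 5 in 30 and 17 cells. These shares rise with depth, which was similar in the 2 libraries.

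**Figure D3:**
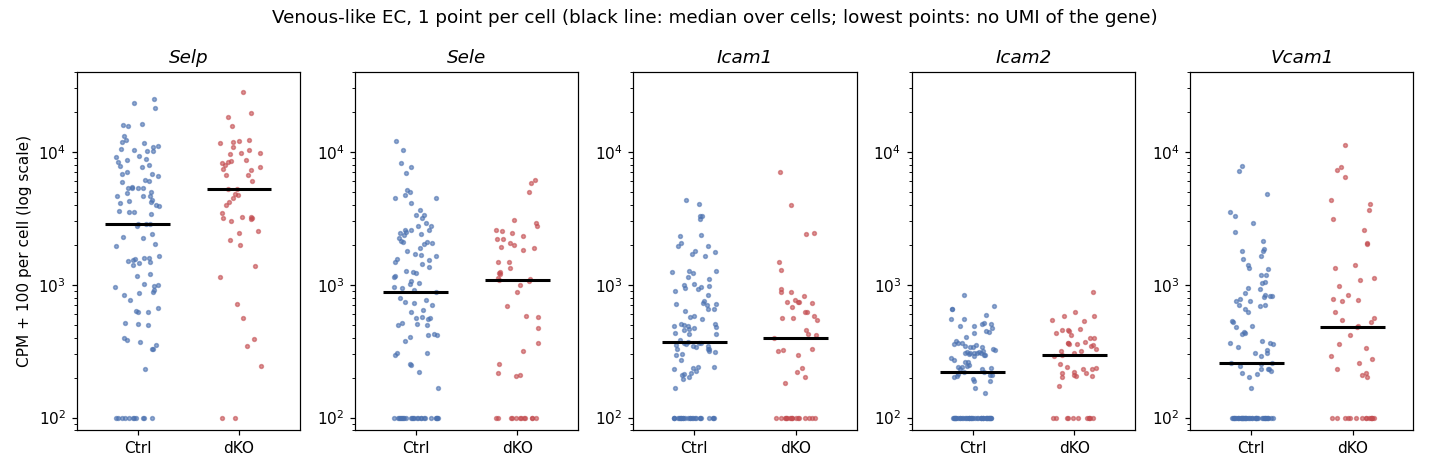
CPM + 100 of 5 genes (y axis, log scale) in each venous-like cell of Ctrl (105 cells, blue) and dKO (51 cells, red), with the median over cells as a black line. The clouds of both libraries overlap for every gene. The dKO median is higher for Selp (5107 against 2772 CPM) and, by less, for Sele. Many cells of each library have no UMI of Icam1, Icam2 or Vcam1.

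In FAP-like cells, Icam1 and Vcam1 were detected in a large share of cells and differed little between libraries over the class. Icam1 was at 158 CPM in Ctrl (2338 UMIs) and 184 in dKO (2815 UMIs), a ratio of 1.16 (1.10 to 1.23). Vcam1 was at 139 (2051 UMIs) and 170 (2596 UMIs), a ratio of 1.22 (1.15 to 1.3). At 2000 UMIs per cell, Vcam1 was found in 17.1% of the FAP-like cells in Ctrl and 17.5% in dKO (43.4% and 45.5% unthinned) against 1.06% and 0% of T cell-like cells (median 3218 and 3089 UMIs against 11871 and 11916). Neither gene reached 1.5-fold, a margin by which 2.61% of 10242 genes were higher and 3.02% lower. The median FAP-like cell had no Vcam1 UMI in either library, and the 109 Ctrl and 114 dKO cells with most Vcam1 held 67.5% and 66.7% of its UMIs.

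The small class difference in Vcam1 hid larger ones of either direction among FAP-like states. Vcam1 was higher in dKO in the unnamed state led by G0s2, Atf3 and Dnaja4 (107 and 185 CPM, ratio 1.73, 1.55 to 1.93) and in the small Inmt+Gdf10+ state led by Hhip and Fmo2 (220 and 733, ratio 3.33, 2.28 to 4.97). It was lower in the activated state led by Cxcl5, Il1rl1 and Lif (179 and 111, ratio 0.622, 0.530 to 0.729) and near parity in the activated state led by Plk2 and Rgcc (232 and 238). The Hhip-led state had only 34 and 30 cells, of which 9 and 13 had Vcam1. Its Icam1 level went the other way, at 275 and 108 CPM (0.393, 0.214 to 0.693). In the G0s2-led state Icam1 was higher in dKO along with Vcam1, at 168 and 247 CPM (1.47, 1.34 to 1.61). In the Clu-led state Vcam1 was at 95.4 and 208 CPM (2.18, 1.53 to 3.17) and Icam1 went the other way, at 484 and 319 (0.659, 0.539 to 0.806). In Pi16+Dpp4+ cells Vcam1 was at 23.0 and 51.4 CPM, but 52 of the 93 dKO UMIs came from 1 cell, and without the highest cell of each library the ratio was 1.33 (0.779 to 2.32). A further FAP-like sub-cluster held 39 dKO cells and no Ctrl cell, with a median of 1941 UMIs. Without it the class ratios were 1.17 for Icam1 and 1.23 for Vcam1.

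VCAM-1 is a surface marker of MuSCs, and MuSC-like cells, the class that holds the target of the deletion, had the highest Vcam1 level after EC-like cells. The leading genes of this class included Ttn and Myog, so it also held differentiating cells. Its 8 myocyte markers summed to 2716 CPM in Ctrl and 5279 in dKO, and its 8 cell cycle markers to 635 and 380. The part of this mix in the Vcam1 ratio was not tested, and the share of all genes past 1.5-fold was not computed for this class. Ctrl had 466 UMIs in 117 cells, or 202 CPM (184 to 221), and dKO had 191 UMIs in 30 cells, or 309 CPM (266 to 356), a ratio of 1.53 (1.29 to 1.81). At 2000 UMIs, 35.7% of MuSC-like cells in Ctrl and 50% in dKO had a Vcam1 UMI, and the intervals of these shares overlapped (26.9 to 45.3 and 31.3 to 68.7). The median cell had 186 CPM in Ctrl and 361 in dKO. Icam1 was near background there (11 and 6 UMIs), and Icam2 had no UMI in either library.

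In MO/MP-like cells the ligands were minor transcripts, and Vcam1 was the 1 member past the margin. It was at 21.0 CPM in Ctrl (274 UMIs) and 39.7 in dKO (342 UMIs), a ratio of 1.89 (1.61 to 2.23). Of 8706 genes tested, 4.32% were at least 1.5-fold higher and 2.78% lower, and 1 of the 6 members tested was higher and none lower. At 2000 UMIs, 3.69% of Ctrl and 4.42% of dKO cells had a Vcam1 UMI, so few cells carried it: 98 of 1422 and 111 of 1131 at full depth. Icam1 was at 42.9 and 53.5 CPM (1.25, 1.10 to 1.41).

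Among the MO/MP-like states, the resident macrophage-like state, led by Cd209f, Lyve1 and Cd163, had the highest Vcam1 level in dKO. It was at 33.6 CPM in Ctrl (33 UMIs in 15 of 197 cells) and 114 CPM in dKO (107 UMIs in 34 of 178 cells), a ratio of 3.40 (2.28 to 5.19), where 6.21% of 2788 genes were at least 1.5-fold higher. Single cells held 15 of the Ctrl and 34 of the dKO UMIs, and without them the ratio was 4.27 (2.52 to 7.61). In the C1q-high state led by Calhm6 and Ifit3 the levels were 36.9 and 40.4 CPM (1.09, 0.810 to 1.47; 1.42 without the highest cell of each library, 41 of 122 UMIs in Ctrl), and in that led by Fbxo32 they were 33.9 and 57.0 (1.68, 1.24 to 2.28). The Spp1+Gpnmb+ state had few UMIs (9 and 23, or 3.24 and 17.5 CPM) and a ratio of 5.42 (2.41 to 13.3), or 3.39 (1.2 to 10.3) without the highest cell of each library. Cycling MO/MP-like cells had 9.72 and 48.6 CPM, but 27 of the 29 dKO UMIs came from 1 cell, and without the highest cells the ratio was 0.446 (0.0492 to 1.94). The marker lists of other Vcam1-bearing cells also had UMIs in the MO/MP-like class. The 10 FAP markers summed to 489 CPM in Ctrl and 359 in dKO and the 10 EC markers to 324 and 259. All were above 0 in both libraries, and both sums were lower in dKO. The EC list holds Fabp4, a leading gene of the Spp1+Gpnmb+ state, so its sum is not endothelial RNA alone. Of that list, Cdh5 was at 5.43 and 1.51 CPM and Pecam1 at 6.12 and 5.23. The 9 MuSC markers summed to 254 and 400 CPM, with 9 and 6 of them above 0. MuSC-like cells were 2.92% of Ctrl and 0.974% of dKO cells. This sum was not split by gene, so it does not measure MuSC RNA in these cells. The part of RNA from other cells in the Vcam1 difference was not tested.

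**Figure D4:**
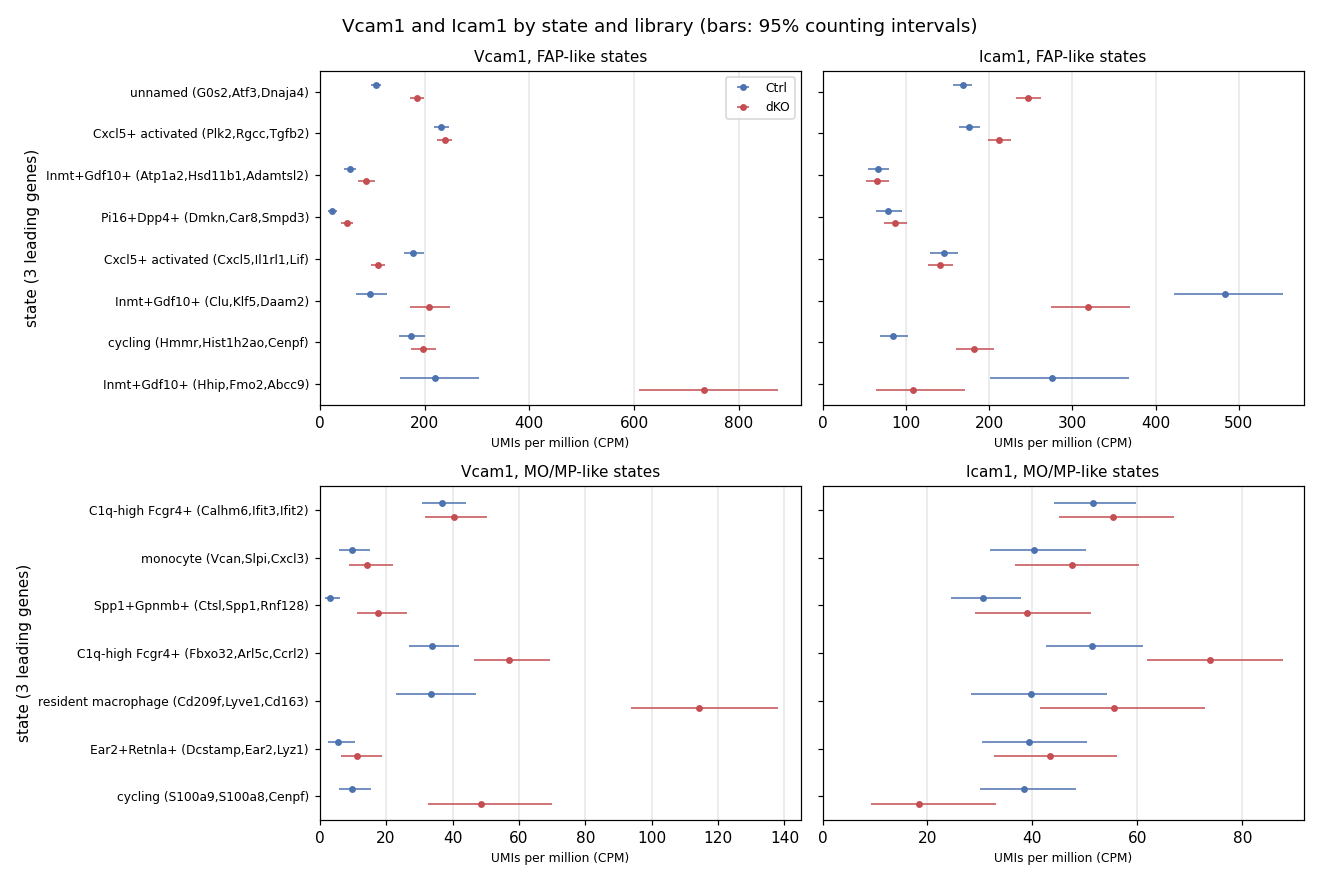
CPM (x axis, a linear scale of its own in each panel) of Vcam1 and Icam1 in the states of FAP-like and MO/MP-like cells (y axis, each named with its 3 leading genes), with Ctrl in blue and dKO in red and bars for 95% counting intervals. Vcam1 is higher in dKO in the Hhip-led FAP-like state (733 against 220) and the resident macrophage-like state (114 against 33.6) and lower in the Cxcl5-led FAP-like state (111 against 179).

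The leukocyte receptors were highest in differing leukocyte classes, with T cell-like cells leading for Itga4 in both libraries and for Selplg in Ctrl. Itgb2 was highest in neutrophil-like cells (340 CPM in Ctrl and 356 in dKO, ratio 1.05, 0.691 to 1.55), Selplg in T cell-like cells of Ctrl (217 CPM) and dendritic cell-like cells of dKO, and Itga4 in T cell-like cells (192 and 181). In dendritic cell-like cells Selplg was at 193 CPM in Ctrl (218 UMIs) and 280 in dKO (267 UMIs), a ratio of 1.45 (1.21 to 1.74). In T cell-like cells none of the 3 differed beyond the counting interval: the ratio was 0.946 (0.689 to 1.3) for Itga4, 0.930 (0.635 to 1.36) for Itgb2 and 0.829 (0.609 to 1.13) for Selplg. B cell-like cells had Itga4 (105 and 101 CPM) but little Itgb2 (30.4 and 27.1) or Selplg (33.1 and 30.9). In tenocyte-like cells, taken as lacking the receptors, they were at 11.6 CPM or less in both libraries.

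In MO/MP-like cells Selplg was higher and Itga4 lower in dKO. Selplg was at 130 CPM in Ctrl (1701 UMIs) and 155 in dKO (1335 UMIs), a ratio of 1.19 (1.11 to 1.28). Itgb2 was at 201 (2630 UMIs) and 188 (1623 UMIs), a ratio of 0.936 (0.880 to 0.997), whose interval included 1 without the highest cell of each library (0.941, 0.884 to 1.002). Itga4 was at 77.8 (1016 UMIs) and 60.4 (520 UMIs), a ratio of 0.777 (0.697 to 0.864). None of the 3 reached 1.5-fold over the class. At 2000 UMIs, Itga4 was found in 14.0% of Ctrl and 10.4% of dKO cells and Selplg in 21.5% and 24.4%, against at most 1.40% of tenocyte-like cells for any of the 3.

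Selplg was higher in dKO in each of the 7 MO/MP-like states, by ratios between 1.07 and 1.29, with the interval above 1 in 3 of them. In 1 of these, the cycling state, it was 1.29 (1.03 to 1.62), and without the highest cell of each library 1.14 (0.889 to 1.45). For Itga4 the state mattered more. In the C1q-high state led by Calhm6 and Ifit3, which had the highest level in Ctrl, it was at 138 CPM (456 UMIs) against 84.5 in dKO (159 UMIs), a ratio of 0.612 (0.508 to 0.734) that passed the margin, where 5.89% of 5180 genes were lower. In the Fbxo32-led state the ratio was 0.714 (0.556 to 0.911) and in the resident macrophage-like state 0.708 (0.495 to 1.01). In cycling MO/MP-like cells it lay on the other side, at 61.5 CPM in Ctrl and 104 in dKO (1.69, 1.22 to 2.32). Itgb2 was highest in the Ear2+Retnla+ state (369 and 335 CPM) and lowest in the resident macrophage-like state (98.7 and 113).

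**Figure D5:**
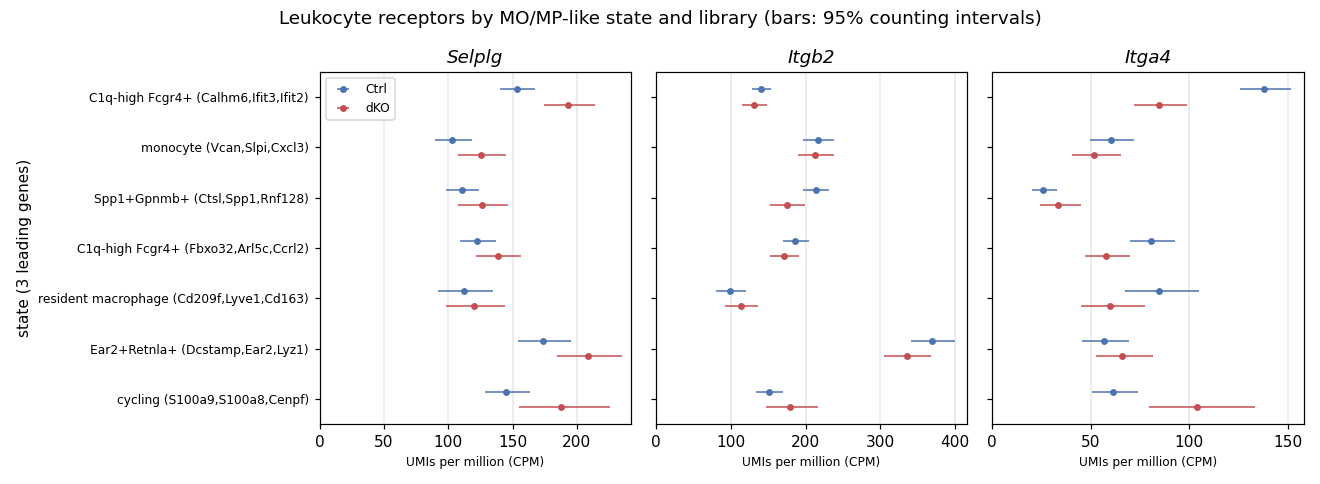
CPM (x axis, a linear scale of its own in each panel) of Selplg, Itgb2 and Itga4 in 7 MO/MP-like states (y axis, each named with its 3 leading genes), with Ctrl in blue and dKO in red and bars for 95% counting intervals. Selplg lies higher in dKO in all 7 states, and Itga4 is lower in dKO in the first C1q-high state (84.5 against 138) and higher in the cycling state (104 against 61.5).

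Of the 5 integrin chains that pair with these receptors and had enough UMIs in MO/MP-like cells, 2 were lower in dKO by at least 1.5-fold and none higher, where 2.78% of all genes tested were lower and 4.32% higher (median log2 ratio -0.35, against 0.00 over all genes tested). Itgal, the alpha chain of LFA-1, was at 37.0 CPM in Ctrl and 17.3 in dKO (0.467, 0.386 to 0.562), and Itgax, the gene of CD11c, at 95.4 and 53.8 (0.564, 0.506 to 0.628). In the Calhm6-led C1q-high state, in which Itga4 was also lower, Itgal was at 50.6 and 14.3 CPM (0.284) and Itgax at 78.1 and 21.3 (0.272). In cycling MO/MP-like cells the ratios were 1.19 (0.725 to 1.89) and 1.35 (0.908 to 1.98), with intervals that include 1. Itgam, the alpha chain of Mac-1, was at 308 and 241 CPM (0.784) and Itgb1, the partner of Itga4 in VLA-4, at 289 and 237 (0.818). The partner of Itga4 in the gut-homing integrin, Itgb7, was at 29.4 and 30.9 (1.05, 0.896 to 1.23). None of the 9 genes of integrin activation, such as Fermt3 (106 and 112 CPM), was past the margin.

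Among genes that build selectin ligands, the transferases called with an interval excluding 1 were all higher in dKO. The ligand genes called that way, Cd44 and Cd24a in EC-like cells, went in opposite directions. In MO/MP-like cells, 2 of 6 transferases tested were at least 1.5-fold higher, beside 4.32% of all genes tested: the sialyltransferase gene St3gal6 (4.67 and 8.94 CPM, 1.92, 1.35 to 2.73) and the tyrosyl sulfotransferase gene Tpst1 (9.95 and 15.6, 1.56, 1.22 to 2.01). St3gal6 was also higher in FAP-like cells (3.31 and 5.03, 1.52, 1.05 to 2.22), as the 1 call of 5 transferases there, beside 2.61% of all genes. In EC-like cells, where 4.5% of genes were higher and 7.1% lower, 1 of 5 transferases was lower, Tpst1 at 34.2 and 21.8 CPM with an interval that includes 1 (0.637, 0.367 to 1.05). Of 6 selectin ligand genes tested in MO/MP-like cells, 1 was lower, Cd34 at 5.43 and 3.60 CPM with an interval that includes 1 (0.663, 0.420 to 1.02), beside 2.78% of all genes. Glycam1, with too few UMIs to be tested, had 71 UMIs in Ctrl and 0 in dKO (interval of the ratio 0 to 0.0809). Of 6 tested in EC-like cells, 1 was lower and 1 higher. Cd44, the gene of a hyaluronan receptor that can carry E-selectin ligands, was at 97.3 CPM in Ctrl and 32.1 in dKO (0.330, 0.215 to 0.489). It was lower in both capillary-like sub-clusters (146 and 54.1, 137 and 34.0) and near the same in venous-like cells (24.6 and 22.5). Cd24a, whose product can bind P-selectin, was at 55.9 and 117 CPM in EC-like cells (2.09, 1.61 to 2.71), with 72.5 and 129 in venous-like and 294 and 296 in arterial-like cells.

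Of the 11 junction and transmigration genes, 6 in EC-like, 4 in MO/MP-like and 3 in FAP-like cells had at least 100 UMIs, and none of these was past the margin. Some with fewer UMIs lay lower in dKO: in EC-like cells Jam3 had 63 Ctrl and 7 dKO UMIs (0.335, 0.130 to 0.732) and Cd99l2 83 and 15 (0.546, 0.292 to 0.952), and in MO/MP-like cells Jam2 had 34 and 3 (0.134, 0.0263 to 0.426) and Cdh5 71 and 13 (0.278, 0.141 to 0.506). Other endothelial genes were lower in dKO MO/MP-like cells as well, at 33 and 9 UMIs for Esam, 24 and 5 for Emcn and 31 and 9 for Podxl. The EC-like share was 11.5% and 5.81% of cells. The EC marker sum in MO/MP-like cells (324 and 259 CPM) includes Fabp4 and is not endothelial RNA alone. The part of endothelial RNA in these differences was not tested. Pecam1 was at 1338 and 1462 CPM in EC-like cells (1.09) and Cdh5, the gene of VE-cadherin, at 1372 and 1138 (0.829). The sheddase genes Adam10 and Adam17, whose products can release selectin ligands and VCAM-1 from the surface, were at 97.6 and 78.6 CPM and at 154 and 143 in MO/MP-like cells, under the margin.

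NF-kB feedback genes, which are induced by the same pathway as the endothelial ligands, differed by class. In MO/MP-like cells 6 of 8 were at least 1.5-fold higher in dKO (median log2 ratio 0.60), beside 4.32% of all genes tested, from Nfkb2 (28.3 and 42.5 CPM, 1.5) to Relb (23.5 and 44.1, 1.88), with Nfkbia at 505 and 765 (1.51), Nfkbiz at 186 and 308 (1.65), Tnfaip3 at 110 and 169 (1.53) and Birc3 at 47.5 and 72.1 (1.52). In FAP-like cells none of the 8 and in EC-like cells none of the 7 tested was past the margin (median log2 ratio 0.19 and 0.08), by which 2.61% and 4.5% of all genes were higher and 3.02% and 7.1% lower. In EC-like cells, where Selp and Vcam1 were higher, Nfkbia was at 1805 and 2290 CPM (1.27, 1.2 to 1.34) and Nfkbiz at 292 and 404 (1.39, 1.22 to 1.57). Tnfaip3 was at 101 and 72.3 (0.715, 0.534 to 0.944), and the other genes tested had intervals that include 1. State shares were not held equal for these genes. These lists were chosen with earlier results of the data known, so their counts describe them and test nothing.

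Across 12 classes in both libraries (24 points, log2(CPM + 10), which share libraries and depth), the gene with the pattern most like Selp was AU021092 (r = 0.981), followed by Sele (0.980) and Zfp979 (0.973). AU021092, Zfp979 and Grrp1 were most like Sele. The nearest genes were Pecam1, Rasip1 and Spns2 for Icam2 (r from 0.904 to 0.926), Plscr2, Pde8a and Socs3 for Icam1 (0.858 to 0.866) and Pdlim4, Tln2 and Noct for Vcam1 (0.877 to 0.891). Selplg and Itgb2 were among the nearest of each other (0.972), both beside Cyth4, with Arhgap9 next for Selplg and Myo1f for Itgb2. Itga4 went with Runx3, Dock8 and Sla (0.928 to 0.934). Vcam1 and its receptor chain Itga4 occupied opposite classes (r = -0.89).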

How the data were processed

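The authors sorted live cells, prepared 10x Chromium libraries and deposited unnormalized UMI counts for each gene in each cell. Per the labels Cell Ranger 7.0.0 and mm10 were used, while the matrix headers name version 3.0.2. The files hold 24984 symbols and 0 mitochondrial genes, so no mitochondrial filter could act. From 4527 Ctrl and 3483 dKO cells (45556596 and 33815155 UMIs), 4335 and 3329 had at least 500 genes. Scrublet (scanpy 1.11.5) itself called 4 and 14 doublets, so its threshold was not used. By rank of score, the top 7.5% of cells (325 and 250) were removed. Counts were integrated and clustered in Seurat 5.3.0 (R 4.3.3; 2000 variable genes without the 8 members, 40 dimensions, resolution 0.8). The 22 clusters were named from listed markers, at least 3 of them enriched 2-fold, and EC-, FAP- and MO/MP-like cells were clustered again at 0.4. UMIs were summed per class and library, with exact Poisson, conditional binomial and Clopper-Pearson 95% intervals (scipy 1.17.1). Shares of cells were taken at 2000 UMIs, leaving out shallower cells. A difference counted from 1.5-fold, with at least 100 UMIs. The code for the ratios and intervals was run on simulated Poisson counts, the model that the intervals assume. Such counts hold no clumping of UMIs by cell, so that run cannot show whether the intervals fit these data. Named genes were all 8 members, genes of 7 cascade lists (55 genes) past that margin with an interval excluding 1, and the 3 genes most like each member. Other cascade genes that the text gives for context, with no call or a call whose interval includes 1 (partner chains, Fermt3, Itgb7, Pecam1, Cdh5, Jam2, Jam3, Cd99l2, Esam, Emcn, Podxl, Glycam1, Cd34 in MO/MP-like cells, Tpst1 in EC-like cells, Adam10, Adam17 and NF-kB genes in EC-like cells) were chosen after their values were seen. Members and lists were chosen with earlier results of these data known. The strand setting of the counting is not given in the sources used here.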

Additional observations from a re-analysis of the deposited data

Results flagged for a closer look

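A gene was noted when its dKO to Ctrl ratio lay above 1 in some classes and below 1 in others, each with at least 100 UMIs and a counting interval excluding 1. The difference between classes was not tested, since each group is 1 library. Itga4 was such a gene, with a ratio of 0.777 (0.697 to 0.864) in MO/MP-like and 1.69 (1.22 to 2.32) in cycling MO/MP-like cells, the latter on 114 Ctrl and 62 dKO UMIs. When sub-clustered, the cycling cells were led by S100a9 and S100a8, both neutrophil markers. Icam1 was another. Its ratio was 1.25 in MO/MP-like, 1.16 in FAP-like, 1.16 in EC-like, 1.73 in dendritic cell-like and 2.21 in cycling FAP-like cells, and 0.521 in smooth muscle/pericyte-like cells. The EC-like ratio lost its margin without the highest cell of each library (1.09, 0.982 to 1.21). The last ratio rested on 91 Ctrl UMIs and on 13 dKO UMIs that all came from 1 cell.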

How the results depend on the processing

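For 15 ratios of a member in a class, 135 values came from 9 other ways of processing and 19 from ways added after these values were seen. Of these, 141 stayed inside the counting interval of the reported ratio, 9 moved outside it and 4 reversed. The first 9 kept doublets, kept cells from 200 genes and 1000 UMIs, let the members be variable genes, left out integration, used resolutions of 0.4 and 1.2, averaged each cell's CPM, scaled by the median ratio or left out the cell with most UMIs. Averaging each cell's CPM gave 1.05 for Sele and 2.69 for Vcam1 in EC-like cells, leaving out the top cell gave 2.32 for Vcam1 there, and resolution 0.4 gave 1.38 for Vcam1 in FAP-like cells. The added ones acted on EC-like cells most. With state shares held equal, Selp was 1.33 and Vcam1 1.34, and Sele (0.964) and Icam1 (0.948) reversed. In venous-like cells alone, Selp was 1.32, Icam2 1.47 and Vcam1 1.51, and Sele (0.932) and Icam1 (0.892) reversed. The interval of Itgb2 in MO/MP-like cells included 1 with no doublets removed (0.967), the 200-gene filter (0.952), members as variable genes (0.940) and without the top cell (0.941), and that of Icam1 in EC-like cells with no doublets removed (1.09) and without the top cell (1.09). With no doublets removed, the CPM of a member in its leading class stayed inside its interval in 6 of 16 cases. No paired analysis was possible because each group holds 1 library. Precision was limited by 51 dKO venous-like and 30 dKO MuSC-like cells and by the lack of replicates.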
